A study of Arabidopsis thaliana with 4 samples.

Results

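In the roots of Arabidopsis thaliana seedlings, 19 loci had reads without aluminium (Al) and were nearly without reads after exposure to it. A locus was taken if it had 20 or more reads in both libraries without Al and 3 or fewer in both libraries with Al, with the reads of its transcript models summed. The 19 loci came from the 22284 loci of the deposited count table, of which 10124 had enough reads without Al to be eligible. They make up 0.188% of those 10124 loci. The loci were thus chosen by these same read counts, so their response to Al is described and not tested.

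The 4 libraries, 1 for each group, are the line labelled arf10/arf16 double mutant with Al, the wild type with Al, the same labelled line without Al and the wild type without Al, all in the Col-0 background. Seedlings were grown for 6 days in 2% MGRL nutrient solution at pH 5.0, and about 500 of them were then kept for 24 h in the same acid solution with 10 or 0 µM AlCl3 before their roots were taken. The line is called arf10/16 below, by its label alone, and the labels give no allele of either mutation. Its label names ARF10 and ARF16, transcription factors of the auxin response. ARF10 had 2640 reads with Al and 3820 without in the arf10/16 libraries, against 142 and 110 in wild type. It was thus higher, not lower, under the label of a mutant of this gene. Reads alone do not show whether a working product is made, so they cannot settle the label. ARF16 had 41 reads with Al and 71 without in the arf10/16 libraries, against 75 and 159 in wild type, so it was lower under that label, 1.56-fold with Al (95% counting interval 1.05 to 2.33) and 2.01-fold without (1.51 to 2.70). As the genes named in the label differ in direction, directions between genotypes hold only as far as the labels do.

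Reads counted to transcript models numbered 2080348 to 2280894 per library. A single library per group gives no replicate, so a counting interval covers counting error only and not the spread between plants or cultures. Root hair genes, which mark roots, summed to 6548 (arf10/16) and 3060 (wild type) reads with Al, against 23742 (arf10/16) and 22218 (wild type) without Al, over the 48 listed genes with reads in the table. The 6 photosynthesis genes listed as shoot markers summed to 17 (arf10/16) and 20 (wild type) reads with Al, against 46 (arf10/16) and 59 (wild type) without Al. In RNA from whole roots, fewer cells of a type and less RNA per cell cannot be told apart.

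In acid soils, aluminium ions are toxic to roots and halt elongation within hours, and the root tip is their main target. Several of the 19 loci belong to systems that are well described in plants. Under copper shortage the transcription factor SPL7 binds GTAC motifs and turns on the microRNAs miR398 and miR408 and copper transporters, and miR398 lowers the messages of copper/zinc superoxide dismutases. CASP proteins form the membrane scaffold under the Casparian strip, the lignin barrier of the endodermis. FLS2 is the receptor for bacterial flagellin, and the RPW8 family, to which HR2 and HR3 belong, holds proteins of resistance to powdery mildew. C1 domain proteins are rich in cysteine and histidine, form a large family in Arabidopsis, and are mostly uncharacterized.

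The mature sequences of the microRNA locus MIR398c are shown because its listed targets in the same libraries are described below. The capitals mark the seed, bases 2 to 8. The 3p arm lies at chr5:4694778-4694798 and the 5p arm at chr5:4694705-4694725, both on the plus strand of RefSeq TAIR10.1, inside a hairpin of 115 bases.
miR398c-3p: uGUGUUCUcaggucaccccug
miR398c-5p: aGGGUUGAuaugagaacacac
The 3p arm is the one known to act on superoxide dismutase messages. The best ungapped match to it in the RefSeq transcripts of its 4 listed targets follows, with capitals for the bases that face the seed.
CSD1: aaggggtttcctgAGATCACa
CSD2: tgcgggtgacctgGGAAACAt
CCS: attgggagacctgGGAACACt
AT3G15640: aaggtgtgacctgAGAATCAc
Of the 21 bases, 17 paired by the Watson-Crick rules in CSD1, 13 in CSD2, and 15 each in CCS and AT3G15640. G to U pairs added 3 in CSD2 and 1 each in CCS and AT3G15640. The CSD1 site lies in the 5′ UTR, over an intron between chr1:2827177 and 2827685. That of CSD2 (chr2:12015572-12015592) and that of CCS (chr1:4267521-4267541, minus strand) are coding, and that of AT3G15640 (chr3:5299204-5299224) is in the 5′ UTR. CSD1 and CSD2 encode the cytosolic and plastid copper/zinc superoxide dismutases, and CCS their copper chaperone. AT3G15640 is listed as COX5b-1 and is annotated as a rubredoxin-like protein.

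The next sequences are the 250 bases before the annotated starts of 4 of the loci, picked after their motifs had been seen, with each GTAC in capitals. All are on the plus strand of RefSeq TAIR10.1. The authors' genome build is not given in the sources used here.
MIR398c, chr5:4694444-4694693: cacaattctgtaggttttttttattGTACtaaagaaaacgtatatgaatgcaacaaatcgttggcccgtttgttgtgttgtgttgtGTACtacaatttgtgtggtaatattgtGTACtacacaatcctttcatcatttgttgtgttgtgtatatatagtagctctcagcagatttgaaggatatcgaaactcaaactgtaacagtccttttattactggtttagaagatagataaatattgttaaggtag
AT3G12900, chr3:4104213-4104462: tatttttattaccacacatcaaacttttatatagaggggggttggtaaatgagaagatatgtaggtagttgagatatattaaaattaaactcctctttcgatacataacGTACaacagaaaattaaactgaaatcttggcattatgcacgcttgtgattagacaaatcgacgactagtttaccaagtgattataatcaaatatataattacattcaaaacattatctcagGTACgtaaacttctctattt
HR2, chr3:18727416-18727665: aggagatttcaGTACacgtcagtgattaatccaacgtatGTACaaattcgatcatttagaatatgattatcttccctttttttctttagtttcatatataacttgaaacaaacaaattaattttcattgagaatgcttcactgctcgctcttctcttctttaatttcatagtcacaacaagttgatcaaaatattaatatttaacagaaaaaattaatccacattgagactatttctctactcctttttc
FLS2, chr5:18791325-18791574: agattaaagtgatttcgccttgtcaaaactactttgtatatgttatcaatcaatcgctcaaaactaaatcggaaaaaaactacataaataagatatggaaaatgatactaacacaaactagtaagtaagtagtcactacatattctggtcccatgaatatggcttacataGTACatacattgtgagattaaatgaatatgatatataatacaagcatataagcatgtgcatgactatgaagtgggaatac
The MIR398c stretch ends at the base before the hairpin and holds 3 GTAC sites, at positions -225, -164 and -137 from its start. AT3G12900 has 2, at -141 and -20, HR2 has 2, at -239 and -211, and FLS2 has 1 at -80.

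GTAC, which reads the same on both strands, occurred in 14 of the 19 windows from 250 bases before to 50 bases after the annotated start, or 73.7%. The share was 38.9% over the 10095 windows of loci with 20 or more reads in both untreated libraries and 39.7% over all 37897 RefSeq gene windows. The 5 loci without it were SOT7, AT2G37800, AT3G49630, CASP4 and AT5G57785. The E-box CANNTG was in 63.2% of the 19 windows, 62.3% of the well-read ones and 62.9% of all. TATAAA was in 57.9%, 52.9% and 48.8% of the same sets, the W-box core TTGAC in 42.1%, 52.8% and 49.5%, and the sulfur response core GAGAC in 31.6%, 31.4% and 33.0%, all on either strand. On the sense strand alone TTGAC was in 36.8% of the 19 windows and 30.8% of the well-read ones, TATAAA in 26.3% and 36.8%, and ACGTG in 0% and 18.9%. On either strand the auxin response element TGTCTC was in 15.8%, 13.4% and 14.2%, the core ACGTG in 10.5%, 28.1% and 24.6%, and the root hair core GCACG, part of the longer RHE motif, in 5.26%, 10.8% and 9.34%. CACGTG, which contains ACGTG and is one form of the E-box, was in none of the 19 windows, 8.53% of the well-read ones and 6.46% of all. Neither GNATATNC (6.51% and 6.13% of the larger sets) nor the full root hair element RHE (0.981% and 0.781%) was found in the 19 windows. A match of letters is a description of the window and not a binding site.

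The 19 loci summed to 36 reads in the arf10/16 library and 26 in the wild-type library with Al, against 608 (arf10/16) and 801 (wild type) without Al. The highest value with Al was 3 reads by the rule. With Al, 2 loci had no read in arf10/16 and 5 had none in wild type, and AT2G43220 had none in either library. Without Al the loci were of low to middle level, which the fixed limit of 3 reads with Al favours. Their reads were 20 to 75 in arf10/16 with a median of 26, and 22 to 177 in wild type with a median of 35, while the medians over the 10124 eligible loci were 87 (arf10/16) and 93 (wild type). Per length of model, their level without Al had a median of 12.0 RPKM in arf10/16 (3.43 to 55.4) and 13.6 RPKM in wild type (4.69 to 56.0), against 25.7 and 26.9 RPKM over the eligible loci. With Al the medians were 0.778 RPKM in arf10/16 and 0.452 RPKM in wild type, and the highest levels were 3.61 RPKM in arf10/16 (RL3) and 2.32 RPKM in wild type (AT4G12510).

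**Figure D1:**
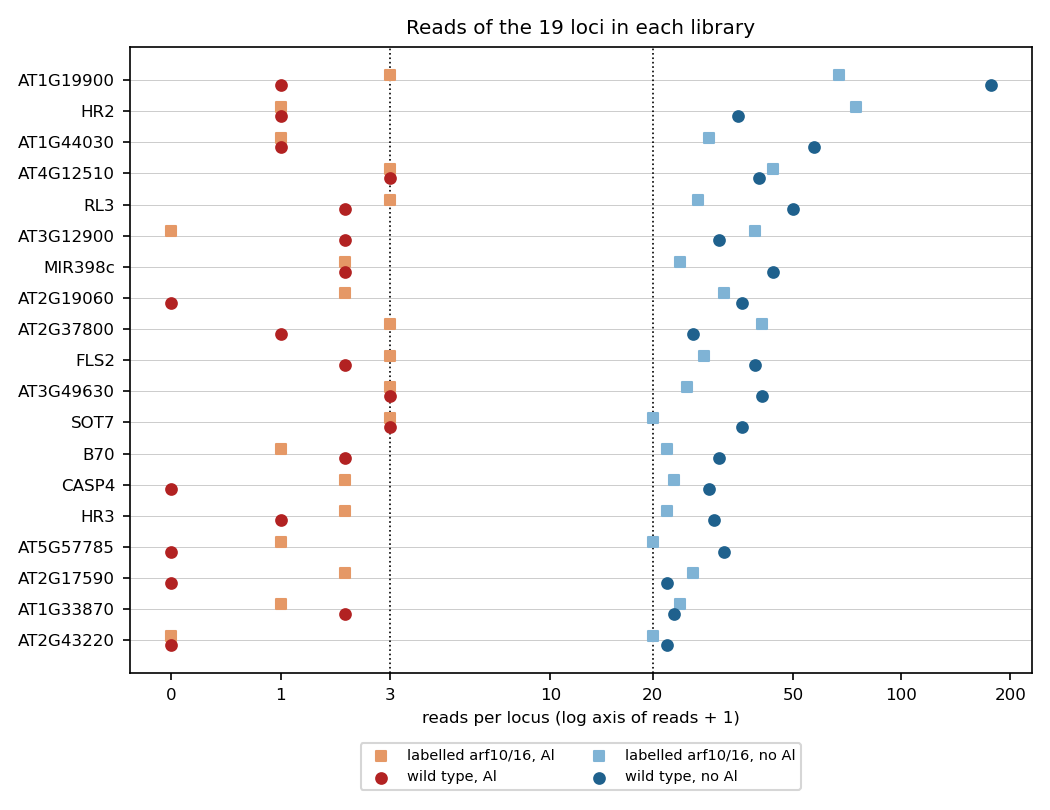
Reads of each of the 19 loci in the 4 libraries, on a log axis of reads + 1, with dotted lines at 3 and 20 reads, the limits of the rule. Points with Al lie at 0 to 3 reads and points without Al at 20 to 177 reads, and AT1G19900 (177 reads in wild type) and HR2 (75 reads in arf10/16) reach farthest to the right.

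**Figure D2:**
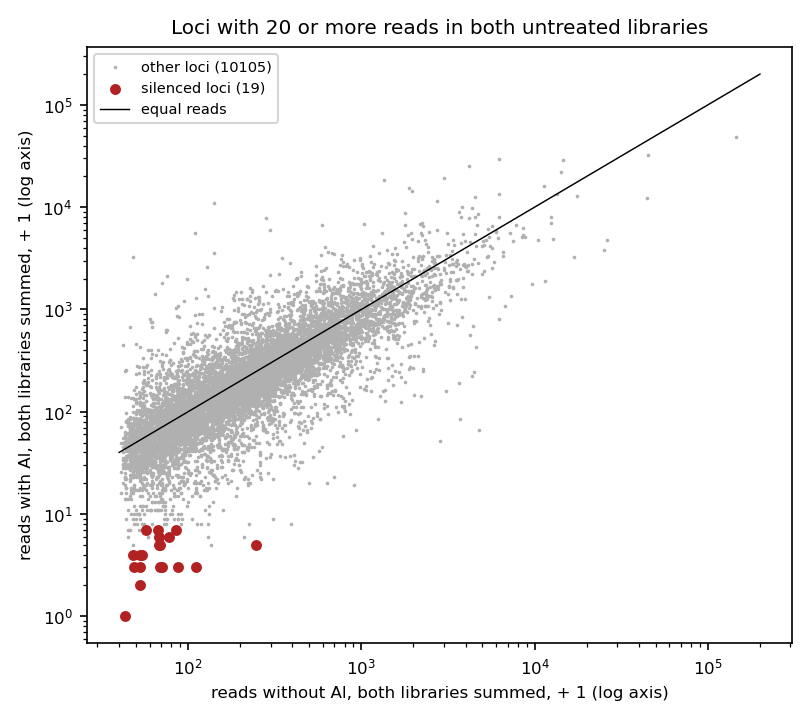
Reads with Al against reads without Al, summed over both genotypes, + 1, on log axes, for the 10124 loci with 20 or more reads in both untreated libraries. The 19 loci lie along the lower left edge, far under the line of equal reads, since the rule placed them there.

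A pairwise ratio is a ratio of reads scaled to library size (CPM), and a locus was called higher or lower (the rule of size) where its log2 ratio, with a prior count of 2, reached 1 in either direction while 1 lay outside the exact 95% counting interval of that ratio. All 19 loci were lower with Al in both genotypes by this measure, which the choice of the loci fixes, and all 19 passed the filter on low counts through their untreated reads. The Al folds and counting intervals given below for the 19 loci make no allowance for that choice. The share called lower was 9.41% of the 14739 loci past the filter on low counts in arf10/16 and 12.1% in wild type, and 10.8% and 13.0% of the eligible loci. For other genes, rose and fell mean past edgeR's quasi-likelihood test, with genotype and treatment as additive terms and all 4 libraries in the fit (Benjamini-Hochberg adjusted p under 0.05), in which 15.5% of all tested loci rose and 13.1% fell with Al. Effects from this model are log2 differences ± SE, and the SE is not a spread between replicates.

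MIR398c had 2 (arf10/16) and 2 (wild type) reads with Al, against 24 (arf10/16) and 44 (wild type) without Al. It was 10.8-fold lower with Al in arf10/16 (95% counting interval 2.69 to 94.6) and 21.0-fold lower in wild type (5.48 to 179). The mature microRNA was not measured. CSD1, a listed target of miR398, had 16 (arf10/16) and 25 (wild type) reads with Al, against 4 (arf10/16) and 3 (wild type) without Al, and rose by 2.60 ± 0.55 (adjusted p = 0.00834). CSD2 had 164 (arf10/16) and 196 (wild type) reads with Al, against 30 (arf10/16) and 34 (wild type) without Al, and rose by 2.59 ± 0.22 (adjusted p = 0.000104). Of the 4 listed targets CSD1 and CSD2 thus rose with Al, as did 15.5% of all tested loci. CCS had 1 (arf10/16) and 1 (wild type) reads with Al, against 3 (arf10/16) and 2 (wild type) without Al, and AT3G15640 had 4 (arf10/16) and 5 (wild type), against 3 (arf10/16) and 8 (wild type). The counts of CCS and AT3G15640 were too low to be tested. With DESeq2's Wald test CSD2 passed and CSD1 did not.

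The reads given to MIR398c cannot be told apart from those of its neighbours. Its deposited model is 1941 bases long, while the RefSeq hairpin has 115 bases and only 997 bases lie between the annotated genes on either side. The model therefore overlaps a neighbouring gene, the strand setting of the counting is not given, and the 250 bases shown above may lie inside the model. The neighbour AT5G14550, on the opposite strand, had 15 (arf10/16) and 23 (wild type) reads with Al, against 73 (arf10/16) and 117 (wild type) without Al, and fell by 2.21 on the log2 scale (adjusted p = 0.000481). NRT2.7, a nitrate transporter gene on its other side and also on the opposite strand, had no read with Al, against 10 (arf10/16) and 11 (wild type) without Al, and fell too. The hairpin is 96.6% identical to that of MIR398b.

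Other genes of copper economy were lower with Al as well. The list was chosen after values had been seen, so its counts are a description. Of its 10 tested loci 9 fell and none rose, against 13.1% and 15.5% of all loci tested. Their median log2 ratio was -2.56 in arf10/16 and -3.12 in wild type, and -2.56 and -3.02 with loci at 0 set to their bound. Over all loci tested it was -0.02 and 0.01. MIR408, the locus of the other copper microRNA, had 2 (arf10/16) and 0 (wild type) reads with Al, against 13 (arf10/16) and 24 (wild type) without Al, and fell by 3.93 ± 0.88 (adjusted p = 0.0110). The iron superoxide dismutase gene FSD1, which plants use in place of the copper enzyme, had 19 (arf10/16) and 16 (wild type) reads with Al, against 195 (arf10/16) and 331 (wild type), and fell by 3.76 ± 0.29 (adjusted p = 8.01e-05). COPT2, a copper transporter, had 11 (arf10/16) and 33 (wild type), against 271 (arf10/16) and 321 (wild type), and fell by 3.70 ± 0.30 (adjusted p = 9.39e-05). FSD1 and COPT2 thus lost reads in both genotypes, while CSD1 and CSD2 had more reads with Al. The third copper/zinc superoxide dismutase gene, CSD3 (AT5G18100), which the miR398 list does not hold, had 13 (arf10/16) and 14 (wild type) reads with Al, against 7 (arf10/16) and 5 (wild type) without Al. COPT1, the metal transporter genes ZIP2 and YSL2, the copper chaperone gene CCH and the reductase genes FRO4 and FRO5, which the iron list also holds, fell too, by 1.33 to 5.36 on the log2 scale. COPT6 had 2 (arf10/16) and 0 (wild type) reads with Al, against 11 (arf10/16) and 4 (wild type) without Al, and did not pass (adjusted p = 0.0901). SPL7 itself had at most 1 read in any library and was not tested.

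AT3G12900 encodes a 2-oxoglutarate and iron dependent oxygenase and belongs to the list of iron uptake genes. It had 0 (arf10/16) and 2 (wild type) reads with Al, against 39 (arf10/16) and 31 (wild type) without Al. This was at least 11.7-fold lower with Al in arf10/16, against a floor of 3 reads, and 14.8-fold lower in wild type (3.77 to 128). Of the 18 other tested loci of the iron list, 10 fell and 3 rose, against 13.1% and 15.5% of all loci tested. Their median log2 ratios were -0.81 in arf10/16 and -1.06 in wild type. FRU, the transcription factor that turns on iron uptake in the epidermis, had 29 (arf10/16) and 36 (wild type) reads with Al, against 392 (arf10/16) and 539 (wild type) without Al, and fell by 3.72 ± 0.22 (adjusted p = 2.8e-05). IRT1, the main iron transporter of the root surface, had 9 (arf10/16) and 9 (wild type), against 365 (arf10/16) and 547 (wild type). The ferric reductase FRO2 had 34 (arf10/16) and 32 (wild type), against 1529 (arf10/16) and 3276 (wild type). Neither gene is among the 19 loci because both kept more than 3 reads with Al. CYP82C4, a cytochrome P450 of coumarin synthesis, had 7 (arf10/16) and 14 (wild type), against 98 (arf10/16) and 165 (wild type), and fell by 3.54 ± 0.27 (adjusted p = 7.57e-05). AT3G13610, another 2-oxoglutarate oxygenase of the list, had 427 (arf10/16) and 439 (wild type), against 872 (arf10/16) and 864 (wild type), and fell by 0.90 ± 0.18 (adjusted p = 0.00694). The iron genes that rose were NAS2, OPT3 and BTS, by 0.61 to 1.36, of which 1 passed under total counts, 1 with limma and 0 with DESeq2's Wald test.

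CASP4 had 2 (arf10/16) and 0 (wild type) reads with Al, against 23 (arf10/16) and 29 (wild type) without Al. It was 10.4-fold lower with Al in arf10/16 (2.57 to 90.9) and at least 9.23-fold lower in wild type. CASP1, CASP2 and CASP5, which act with it at the Casparian strip, fell. CASP1 had 101 (arf10/16) and 62 (wild type) reads with Al, against 432 (arf10/16) and 628 (wild type) without Al, a change of -2.59 ± 0.31 (adjusted p = 0.000538). CASP2 had 41 (arf10/16) and 28 (wild type), against 204 (arf10/16) and 230 (wild type). CASP5 stood just outside the rule, with 3 (arf10/16) and 3 (wild type), against 20 (arf10/16) and 17 (wild type), and fell by 2.47 ± 0.57 (adjusted p = 0.0127). In each of these 3 genes both Al libraries lay under both untreated libraries, which by CPM held for 35.9% of the eligible loci.

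PER64, the peroxidase that lignifies the strip, fell by 2.15 ± 0.26 (adjusted p = 0.000609), with 89 (arf10/16) and 55 (wild type) reads with Al, against 314 (arf10/16) and 367 (wild type) without Al. MYB36, the transcription factor that turns on the CASP genes, had 111 (arf10/16) and 111 (wild type) reads with Al, against 123 (arf10/16) and 117 (wild type) without Al and did not pass (adjusted p = 0.989). The receptor kinase gene SGN3, which senses gaps in the barrier, rose by 0.68 ± 0.19 (adjusted p = 0.0254), a call that neither DESeq2's Wald test nor limma made. Of the 8 other tested loci of the Casparian list 5 fell, 1 rose and 2, MYB36 and SGN1, did not pass. Over all loci tested 13.1% fell and 15.5% rose. Of 28 other tested loci of the whole CASP and CASP-like family, listed after values had been seen, 6 fell and 7 rose.

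FLS2 had 3 (arf10/16) and 2 (wild type) reads with Al, against 28 (arf10/16) and 39 (wild type) without Al. It was 8.43-fold lower with Al in arf10/16 (2.60 to 43.3) and 18.6-fold lower in wild type (4.82 to 159). Its level without Al was the lowest of the 19 loci per length, at 3.43 RPKM in arf10/16 and 4.69 RPKM in wild type, and its model of 3727 bases the longest. FLS2 overlaps the end of RWA1 on the other strand by 172 bases, and RWA1 had 117 (arf10/16) and 137 (wild type) reads with Al, against 166 (arf10/16) and 188 (wild type) without Al. Other receptors and partners of pattern-triggered immunity were listed after values had been seen. Of 9 tested, 1 fell (SD1-29) and 1 rose (PEPR2), but neither passed with DESeq2's Wald test or limma, and 2 rose without a filter. Of the 140 other tested leucine-rich repeat receptor kinases, the family of FLS2, 46 fell (32.9%) and 10 rose, against 13.1% and 15.5% of all loci tested. EFR, the receptor for bacterial elongation factor Tu, had 14 (arf10/16) and 8 (wild type) reads with Al, against 7 (arf10/16) and 7 (wild type) without Al (adjusted p = 0.364). BAK1, the co-receptor of FLS2, had 12 (arf10/16) and 5 (wild type), against 9 (arf10/16) and 6 (wild type) (adjusted p = 0.763). The chitin receptor kinase CERK1 had 221 (arf10/16) and 205 (wild type), against 266 (arf10/16) and 119 (wild type) (adjusted p = 0.34). In BAK1 and CERK1 the libraries with and without Al overlapped, while EFR had 14 or fewer reads in each library.

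HR2 had 1 (arf10/16) and 1 (wild type) reads with Al, against 75 (arf10/16) and 35 (wild type) without Al. HR3 had 2 (arf10/16) and 1 (wild type), against 22 (arf10/16) and 30 (wild type). HR3 was 9.93-fold lower with Al in arf10/16 (2.44 to 87.1) and 28.6-fold lower in wild type (4.76 to 1168), and HR2 67.7-fold lower in arf10/16 (11.8 to 2710) and 33.4-fold lower in wild type (5.62 to 1357). These homologues of the mildew resistance gene RPW8 are neighbours on chromosome 3, the only adjacent pair among the 19 loci, and are 83.7% identical over 48.2% of HR2, so reads could be split between them. The next gene of the stretch, HR4, had 59 (arf10/16) and 26 (wild type) reads with Al, against 117 (arf10/16) and 38 (wild type) without Al, and did not pass (-0.70 ± 0.24, adjusted p = 0.0602). HR1, on the other side, had no read with Al and 1 in each untreated library. AT3G26470, a further family member elsewhere, rose by 1.88 ± 0.26 (adjusted p = 0.00109), with 1243 (arf10/16) and 1440 (wild type) reads with Al, against 531 (arf10/16) and 285 (wild type) without Al.

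AT1G33870 encodes a nucleoside triphosphatase with a P-loop and lies in a row of such genes that includes AIG1, a gene induced by bacterial avirulence signals. It had 1 (arf10/16) and 2 (wild type) reads with Al, against 24 (arf10/16) and 23 (wild type) without Al. It was 21.7-fold lower with Al in arf10/16 (3.53 to 891) and 11.0-fold lower in wild type (2.71 to 96.1). Its neighbours AT1G33840, AT1G33880, AT1G33900, AT1G33910 and AT1G33930 fell as well. AT1G33840 had 4 (arf10/16) and 1 (wild type) reads with Al, against 51 (arf10/16) and 78 (wild type) without Al (-4.51, adjusted p = 0.000394). AT1G33930 had none with Al, against 18 (arf10/16) and 20 (wild type) without Al. AIG1 itself went the other way, with 30 (arf10/16) and 17 (wild type) reads with Al, against 1 (arf10/16) and 0 (wild type) without Al (5.36, adjusted p = 0.00141). AT1G33890 did not pass (adjusted p = 0.0729).

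The loci among the 19 that encode C1 domain proteins are 4: AT1G44030, AT2G37800, AT2G17590 and AT2G43220. AT1G44030 had 1 (arf10/16) and 1 (wild type) reads with Al, against 29 (arf10/16) and 57 (wild type) without Al. AT2G37800 had 3 (arf10/16) and 1 (wild type), against 41 (arf10/16) and 26 (wild type). AT2G17590 had 2 (arf10/16) and 0 (wild type), against 26 (arf10/16) and 22 (wild type). AT2G43220 had no read in either Al library, against 20 (arf10/16) and 22 (wild type), so the fold was at least 6.02 in arf10/16 and at least 7.0 in wild type. AT1G44030 was 26.2-fold lower with Al in arf10/16 (4.34 to 1069) and 54.4-fold lower in wild type (9.38 to 2186). These counts are small, and the intervals are wide.

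The C1 domain family as a whole was searched by product name after the values had been seen. It holds 151 annotated loci, 136 of them in the count table and 99 past the filter. Of the 95 that are not among the 19 loci, 54 fell (56.8%) and 1, AT1G60420, rose, against 13.1% and 15.5% over all loci tested. Their median log2 ratio was -1.35 in arf10/16 and -1.45 in wild type (-1.34 and -1.43 with loci at 0 set to their bound), and 83 and 82 of them lay below 0. AT5G40590 had 118 (arf10/16) and 62 (wild type) reads with Al, against 793 (arf10/16) and 729 (wild type) without Al, and fell by 3.02 ± 0.26 (adjusted p = 0.000111). AT2G27660 had 196 (arf10/16) and 90 (wild type), against 1048 (arf10/16) and 450 (wild type), and fell by 2.26 ± 0.20 (adjusted p = 0.000114). AT5G43520 had 240 (arf10/16) and 111 (wild type), against 848 (arf10/16) and 349 (wild type), and fell by 1.63 ± 0.19 (adjusted p = 0.000499). In AT2G27660 and AT5G43520 each arf10/16 library stood above the wild-type library of the same treatment, yet both Al libraries lay under both untreated ones. With DESeq2's Wald test 22 of these loci fell.

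Root hair genes, none of which is among the 19 loci, moved in the same direction over the same libraries: 38 of 42 tested fell and 1 rose. Over all loci tested 13.1% fell and 15.5% rose. The 4 root cap genes summed to 39 (arf10/16) and 21 (wild type) reads with Al, against 59 (arf10/16) and 96 (wild type) without Al. Those of the stem cell niche, 5 in all, summed to 295 (arf10/16) and 308 (wild type), against 377 (arf10/16) and 442 (wild type), and the 10 Casparian genes to 790 (arf10/16) and 769 (wild type), against 1553 (arf10/16) and 1929 (wild type). None of 3 root cap genes and none of 4 niche genes tested fell by the quasi-likelihood test, though 2 and 1 did without a filter, and by the rule of size 0 root cap genes were lower with Al in arf10/16 and 3 in wild type, and 0 and 1 niche genes. All 3 tested genes of lignified xylem fell (1 with limma and 0 with DESeq2's Wald test). Of the 6 genes of the shoot list only 1 had enough reads to be tested, and it fell. LHCA1, LHCB1.1 and LHCB2.1 of that list had no read with Al, but their counts were too low to be tested. The part of these cell types in the low reads of the 19 loci was not tested.

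**Figure D3:**
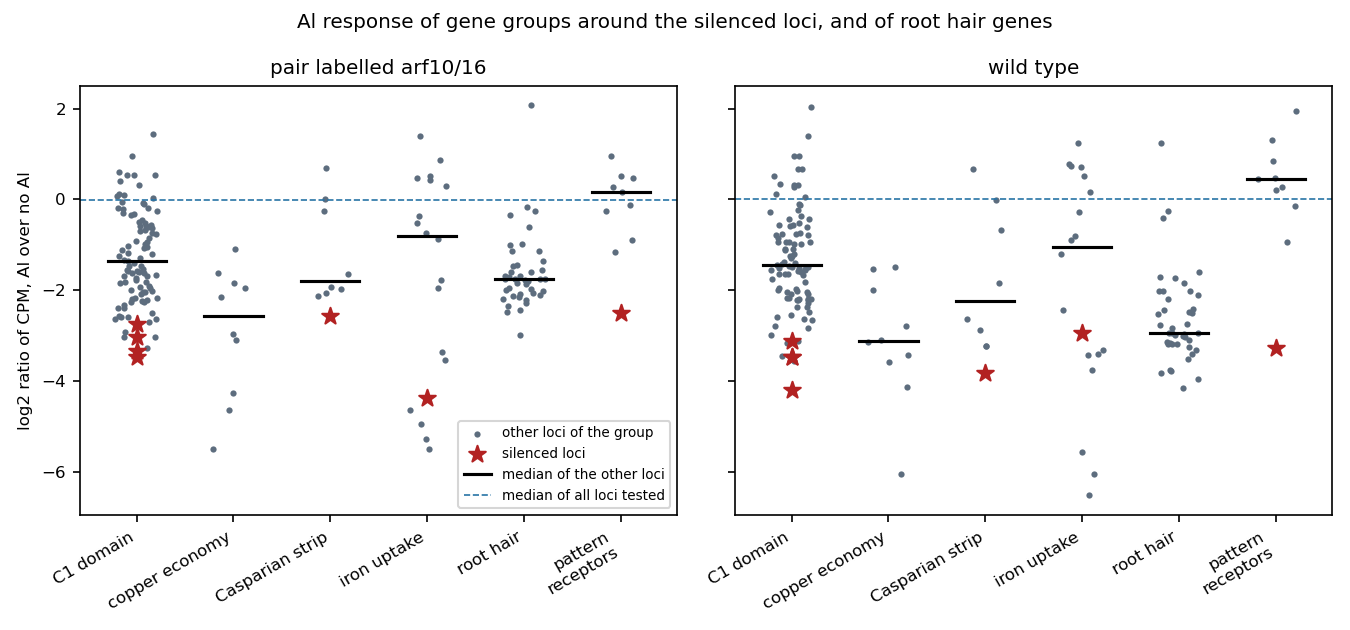
Log2 ratios of CPM, Al over no Al, with a prior count of 2, for 5 gene groups that hold some of the 19 loci or move with them and for root hair genes, in the pair labelled arf10/16 (left) and in wild type (right). Stars are loci of the 19, dots the other tested loci of a group, bars their medians, and the dashed line is the median of all tested loci (-0.02 and 0.01). The C1 domain median lies at -1.35 in arf10/16 and -1.45 in wild type and that of copper economy at -2.56 and -3.12, while the pattern receptors other than FLS2 centre on 0.17 and 0.45.

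The remaining 8 loci encode enzymes, regulators and wall or lipid proteins of less defined role. AT1G19900, related to glyoxal oxidases, had 3 (arf10/16) and 1 (wild type) reads with Al, against 67 (arf10/16) and 177 (wild type) without Al. It was 20.2-fold lower with Al in arf10/16 (6.61 to 100.2) and 169-fold lower in wild type (29.9 to 6711). Its closest relative, AT1G75620 (72.5% identical), had 3 (arf10/16) and 14 (wild type) reads with Al, against 13 (arf10/16) and 23 (wild type) without Al. SOT7, a sulfotransferase, had 3 (arf10/16) and 3 (wild type) reads with Al, against 20 (arf10/16) and 36 (wild type) without Al. Of 11 other tested sulfotransferases 4 fell and 1 rose. ST4B, its closest relative, had 70 (arf10/16) and 15 (wild type) reads with Al, against 263 (arf10/16) and 264 (wild type) without Al, and fell by 2.66 ± 0.43 (adjusted p = 0.00232). ST2A had 295 (arf10/16) and 313 (wild type), against 109 (arf10/16) and 72 (wild type), and rose by 1.87 ± 0.22 (adjusted p = 0.000503). Sulfotransferases thus moved in both directions.

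RL3, a small MYB protein of the RAD-like group, had 3 (arf10/16) and 2 (wild type) reads with Al, against 27 (arf10/16) and 50 (wild type) without Al. B70, a bHLH protein, had 1 (arf10/16) and 2 (wild type), against 22 (arf10/16) and 31 (wild type). AT2G19060, an SGNH hydrolase, had 2 (arf10/16) and 0 (wild type), against 32 (arf10/16) and 36 (wild type). Per length, RL3 was the most abundant of the 19 in wild type without Al, at 56.0 RPKM, against 30.8 RPKM in arf10/16. AT3G49630, a second 2-oxoglutarate oxygenase, had 3 (arf10/16) and 3 (wild type) reads with Al, against 25 (arf10/16) and 41 (wild type) without Al. AT5G57785, an uncharacterized protein, had 1 (arf10/16) and 0 (wild type), against 20 (arf10/16) and 32 (wild type). The families of these loci, listed after values had been seen, moved in both directions: 12 of 54 other 2-oxoglutarate oxygenases fell and 11 rose, 8 of 38 hydrolases of the GDSL and SGNH kind fell and 8 rose, and 10 of 48 bHLH genes fell and 4 rose. AT2G19060, AT2G43220 and AT3G49630 overlap another annotated gene, so their reads may be shared. AT3G49630 is also 88.0% identical to DIN11 over 52.5% of its length, and AT2G37800 83.8% identical to AT2G37805 over 97.4%. Neither relative is in the count table, so reads of these relatives may have been counted to the 2 loci.

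AT4G12510, a lipid-transfer protein, had 3 (arf10/16) and 3 (wild type) reads with Al, against 44 (arf10/16) and 40 (wild type) without Al. It lies in a row of related genes on chromosome 4. AT4G12520 next to it, 93.3% identical over 81.9% of the length, had 125 (arf10/16) and 33 (wild type) reads with Al, against 497 (arf10/16) and 635 (wild type) without Al, and fell by 2.89 (adjusted p = 0.0023). Reads of this pair could be split between them by the counting. AIR1, a gene known to be induced by auxin in root cultures, had 5 (arf10/16) and 7 (wild type), against 45 (arf10/16) and 94 (wild type), and fell by 3.39 (adjusted p = 0.000279). EARLI1, AT4G12500 and AT4G12545 fell too. AZI1, a gene of systemic immunity at the end of the row, rose by 1.18 (adjusted p = 0.00479), with 206 (arf10/16) and 482 (wild type) reads with Al, against 128 (arf10/16) and 178 (wild type) without Al. Over the whole lipid-transfer superfamily 10 of 36 other loci fell and 15 rose.

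Both AT1G44030 and AT2G37800 also have falling neighbours of the same family. Beside AT1G44030, AT1G44020 (91.8% identical over 73.8% of the length) had 6 (arf10/16) and 1 (wild type) reads with Al, against 54 (arf10/16) and 36 (wild type) without Al, and AT1G44050 had 39 (arf10/16) and 30 (wild type), against 171 (arf10/16) and 153 (wild type). Around AT2G37800, AT2G37780, AT2G37810 and AT2G37820 fell. AT2G37810 had 2 (arf10/16) and 0 (wild type) reads with Al, against 32 (arf10/16) and 4 (wild type) without Al. By the rule of size it was lower in arf10/16 only. AKR4C10, an oxidoreductase gene within the same stretch, had 14 (arf10/16) and 23 (wild type) reads with Al, against 27 (arf10/16) and 31 (wild type) without Al, and did not pass (adjusted p = 0.254). Over all of the loci, 36 nearest tested neighbours that are not themselves among the 19 were examined, of which 10 fell (27.8%) and none rose by edgeR's quasi-likelihood test, against 13.1% and 15.5% of all loci tested. Of these 10, AT1G33840, AT1G33880, AT1G44020, AT1G44050, AT2G37810, AT4G12500 and AT4G12520 lie in the gene stretches described here and above. AT5G14550 and NRT2.7 flank MIR398c, whose model overlaps a neighbouring gene. The last, AT2G43200, lies beside AT2G43220. The share of 27.8% thus comes mostly from a few stretches and does not describe neighbours of the 19 loci in general. Neighbours of the 19 loci can share reads where genes overlap or are near-identical.

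**Figure D4:**
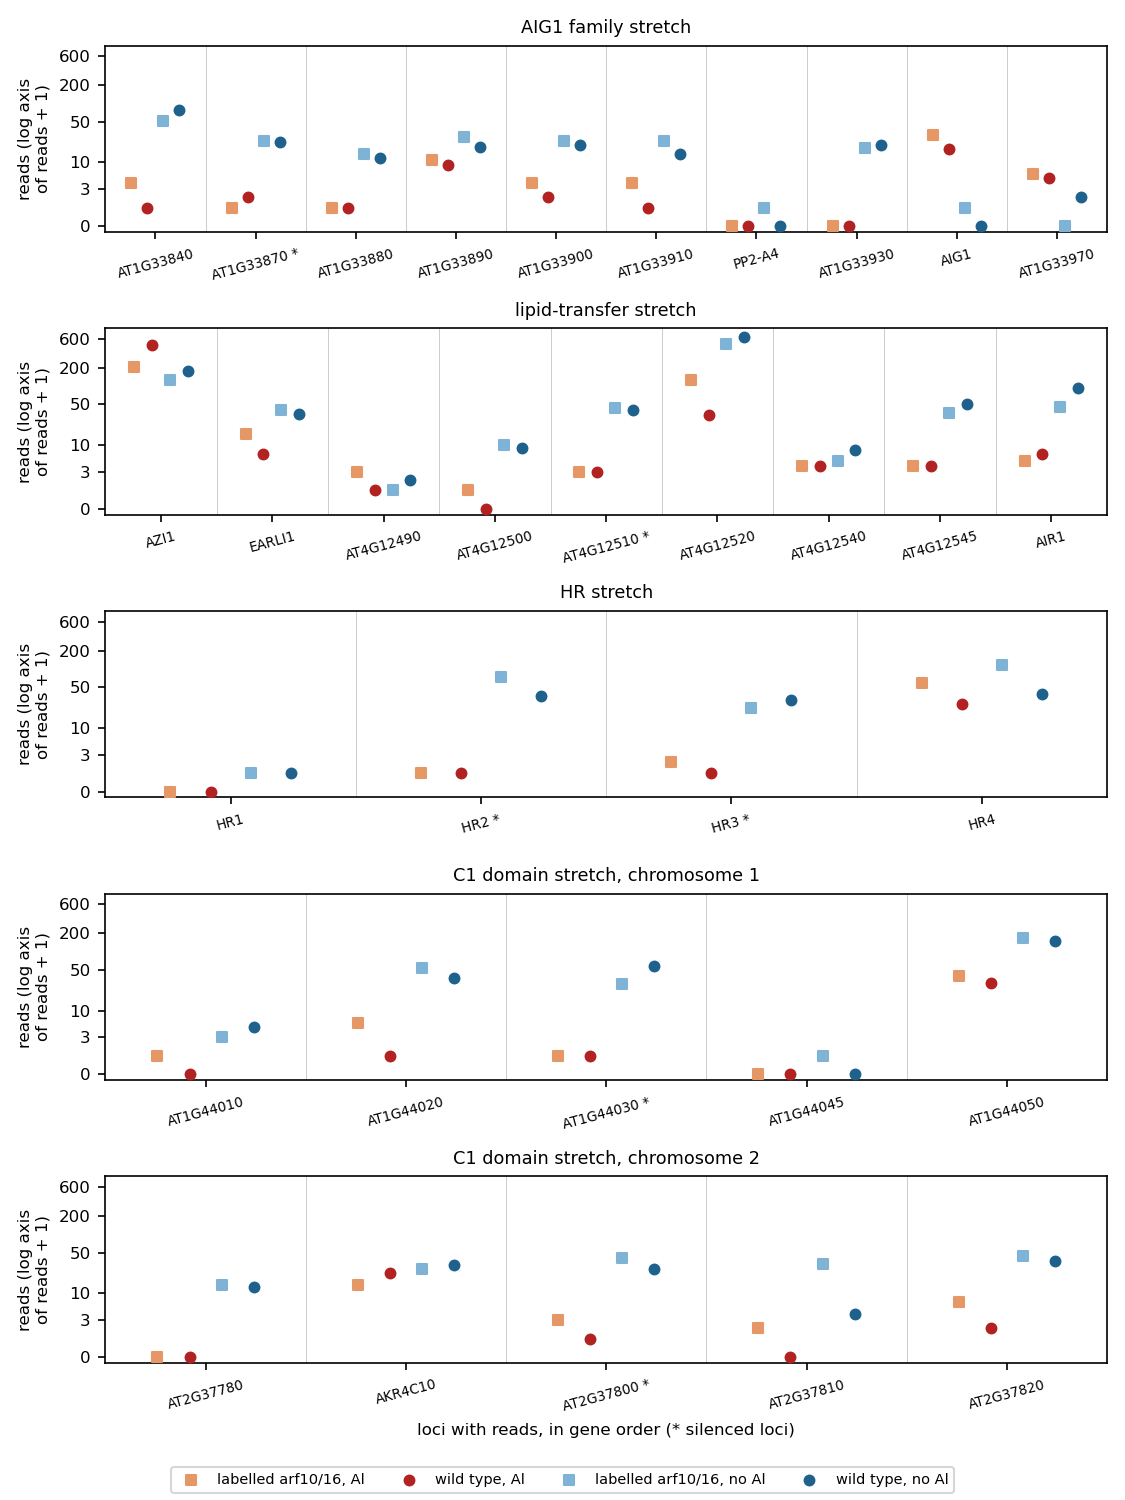
Reads of the loci in 5 stretches around some of the 19 loci (asterisks), in gene order, on a log axis of reads + 1, with the libraries labelled arf10/16 as squares and wild type as circles. Points with Al (orange and red) lie under those without Al (blue) at most loci, but over them at AIG1 (30 and 17 reads with Al, 1 and 0 without), at AT1G33970 beside it (6 and 5 with Al, 0 and 2 without) and at AZI1 (206 and 482 with Al, 128 and 178 without).

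The genotype ratio without Al did not enter the rule, which asks only for 20 reads in both untreated libraries. By the rule of size, 1 of the 19 loci was higher and 1 lower in arf10/16 than in wild type without Al, where 6.61% of the eligible loci were higher and 1.13% lower. HR2 was higher, with 75 reads in arf10/16 and 35 in wild type, a ratio of 2.38 (95% counting interval 1.58 to 3.67). AT1G19900 was lower, with 67 reads in arf10/16 and 177 in wild type, 2.38-fold lower (1.78 to 3.20). Next in order came AT2G37800 at a ratio of 1.75 (1.05 to 2.99) and AT3G12900 at 1.40 (0.851 to 2.32) on the higher side, and AT1G44030 at 0.566 (0.349 to 0.900) and RL3 at 0.601 (0.362 to 0.978) on the lower side. The median log2 ratio of the 19 was -0.27, against -0.01 over the eligible loci, and 12 of 19 lay below 0, against 50.6% of the eligible loci. The intervals of neighbours in this order overlapped throughout.

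The additive model includes the Al reads that the rule held to 3 or fewer, so its genotype test supports nothing about these loci and is given as a value. In it none of the 19 loci passed the genotype test by edgeR's quasi-likelihood test, 2 of them had an unadjusted p under 0.05, and 1.86% of all tested loci were higher and 0.305% lower. The smallest adjusted p was 0.138, for HR2 (1.20 ± 0.36), and AT1G19900 followed with -1.09 ± 0.36 (adjusted p = 0.186). DESeq2 and limma also called none, though DESeq2 gave an adjusted p for only 1 of the 19 (18 were NA). With Al no locus of the 19 differed between genotypes by the rule of size, where 3.9% of the eligible loci were higher and 0.83% lower in arf10/16. At 0 to 3 reads per library, a difference between genotypes with Al was not detectable at this depth.

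**Figure D5:**
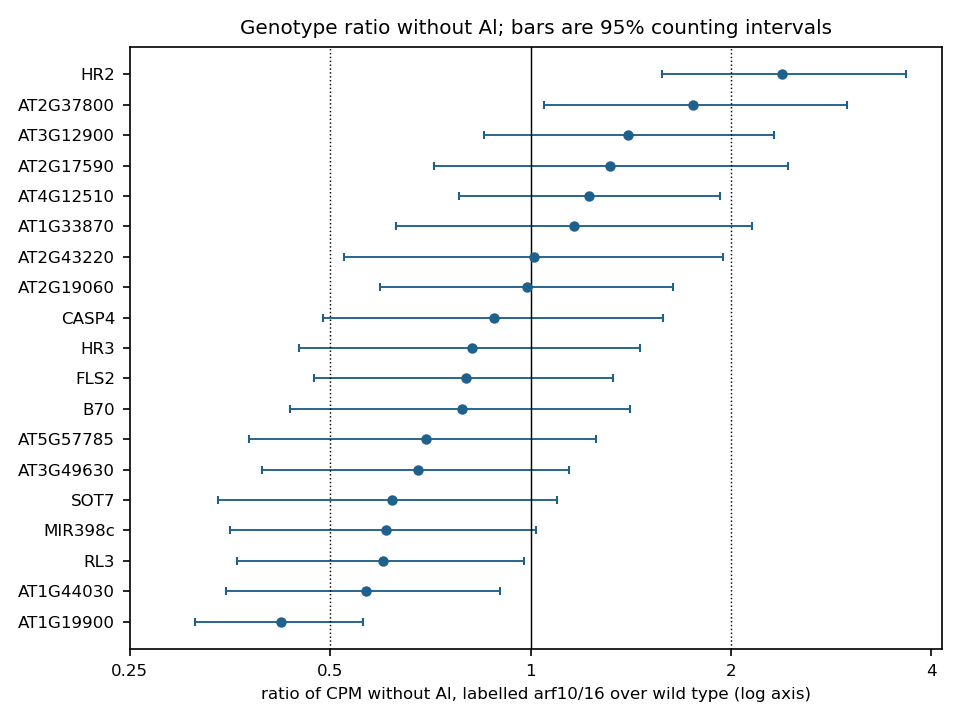
Ratio of CPM without Al, arf10/16 over wild type, for the 19 loci on a log axis, with exact 95% counting intervals that cover counting error only. Dotted lines mark 2-fold in each direction, and HR2 (2.38) and AT1G19900 lie beyond them, on opposite sides.

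Loci lay close to the limits of the rule on both sides. Just inside, SOT7, AT3G49630 and AT4G12510 had 3 reads in both Al libraries, and SOT7, AT2G43220 and AT5G57785 had 20 reads in their lower untreated library, arf10/16. Just outside, 18 loci had 4 reads in an Al library and no more than 4 in the other. Among them AT3G29410, a terpenoid cyclase gene, had 4 (arf10/16) and 0 (wild type) reads with Al, against 56 (arf10/16) and 79 (wild type) without Al. The ferulate hydroxylase FAH1 of lignin synthesis had 3 (arf10/16) and 4 (wild type), against 64 (arf10/16) and 159 (wild type). AT1G33840, described above, was another. On the other limit 3 loci had 18 or 19 reads in the lower untreated library, among them the baruol synthase gene BARS1, with 0 (arf10/16) and 2 (wild type) reads with Al, against 19 (arf10/16) and 200 (wild type) without Al. The mirror rule, with 20 or more reads in both Al libraries and 3 or fewer in both untreated ones, found 35 loci.

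The 19 loci lie on all 5 chromosomes, 4 each on chromosomes 1, 2, 3 and 5 and 3 on chromosome 4. Each has 1 transcript model in the count table, as have 96.7% of the eligible loci. Their models had a median length of 1074 bases, from 400 (RL3) to 3727 (FLS2), against 1613 bases over the eligible loci, so the same level gives fewer reads in them.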

How the data were processed

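Aligner, counter, build and strand setting are not given in the sources used. Per the labels' protocols, RNA was isolated from roots by column and sequenced on an Illumina platform. The deposited table of read counts holds whole reads per transcript model; the deposited RPKM table holds the same reads per kilobase and library total, and gave the model lengths. Model lengths equalled that of a RefSeq transcript for 20.5% of 24946 matched models and for 2 of the 19 loci. Empty cells were read as 0 and the models of a locus were summed.

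The 19 loci and the gene lists were chosen with earlier results of these data known, and the copper, miR398, receptor and family lists after values had been seen. Named were the loci in a list, with a symbol, with the most reads, at the extremes of the genotype ratio or at the limits of the rule; in the end all 19 were described. A further gene of the Casparian list is not reported here by name. Names and sequences came from RefSeq TAIR10.1, which matched 99.3% of loci.

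Loci were kept by edgeR's filterByExpr (14739) and libraries scaled by TMM. Ratios used a prior count of 2 and Clopper-Pearson 95% intervals, with a floor of 3 reads for a library at 0. The one test was edgeR 4.0.16 (R 4.3.3) with genotype and treatment as additive terms on 1 residual degree of freedom. It sets 2 libraries against 2, and departures from additivity are its error. The SE is the absolute effect divided by the square root of F. A check on simulated counts used additive effects and a common dispersion, so it does not cover such departures. The Al term of the test was planned for no result and is used only for loci other than the 19. Nothing says that libraries came from several cultures, and with 1 library per group the p-values measure no spread between samples of a group. Alternatives were other scalings, no filter, DESeq2 1.42.0, limma 3.58.1 on log2(RPKM + 0.5), other limits of the rule and a sense-strand motif search. Relatives were found with BLAST+ 2.17.0.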

Additional observations from a re-analysis of the deposited data

How the results depend on the processing

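The number of loci follows the limits of the rule: 78 loci with 10 or more untreated reads, 1 with 50 or more, 4 with 1 or fewer Al reads and 49 with 5 or fewer. The rule applied to each model alone added IRT1 and AT5G14550. Under total counts or DESeq2 size factors the Al ratios of the 19 loci kept their sign, and of their genotype ratios that of AT2G43220 without Al changed it, from a log2 of 0.01 to -0.10 under total counts, which moved the median genotype ratio of all loci without Al to -0.12. With a 1.5-fold threshold, 2 loci were higher and 3 lower in arf10/16 without Al. The genotype test called 274 loci higher and 45 lower, against 127 higher under total counts, 68 lower under DESeq2 size factors, 740 and 179 without a filter, 174 and 6 with DESeq2's Wald test, and 1 and 0 with limma on RPKM. For Al, added after seeing the data, the Wald test gave 1049 loci that rose and 690 that fell, against 2278 and 1924, and 22 C1 domain loci that fell, against 54; without a filter 2 C1 domain loci rose. On the sense strand alone ACGTG was in 0% and TATAAA in 26.3% of the 19 windows, against 18.9% and 36.8% of the well-read ones. The causes were not tested. With 3 reads or fewer, which the rule fixes, the Al libraries cannot rank these loci. No library could be left out, because 3 libraries leave no residual degree of freedom. No paired analysis was possible because each group has 1 library without a replicate number; the additive model already compares treatments within genotype.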
